A study of Mus musculus with 27 samples.

Results

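Complement components and receptors were followed as 8 genes, C1qa, C1qb, C1qc, C3, Cfb, Cfp, C3ar1 and C5ar1, picked by symbol among the 50559 genes of the count table. The choice was made with earlier results of these data known. All 8 passed the filter on low counts that left 13614 genes to be tested. The cells were bone marrow-derived macrophages of C57BL/6 mice aged 3 to 4 months and labelled as female, either WT or lacking the mitochondrial chaperone TRAP1 (TRAP1 KO). They were studied unpolarized (Mφ) or after 24 h with 10 ng/ml of IL-4 (M2), and then kept for 48 h in control medium (DMEM) or in a medium conditioned by malignant peripheral nerve sheath tumor cells (MPNST-CM). The 8 groups were WT Mφ, TRAP1 KO Mφ, WT M2 and TRAP1 KO M2 macrophages, each in control medium or in MPNST-CM, with 3 libraries of 3′ mRNA sequencing in every group. All cells had first been differentiated from bone marrow in macrophage differentiation medium, and WT and TRAP1 KO cells came from different mice. The comparisons ask how these transcripts respond to tumor cell medium, to the loss of TRAP1 and to IL-4.

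Complement is a cascade of plasma and locally made proteins. C1q, assembled from A, B and C chains, recognizes immune complexes, dying cells and some pathogens and starts the classical pathway, and macrophages are a main source of it. C3 is the central component on which the pathways converge, factor B provides the protease of the alternative pathway, and properdin stabilizes the convertase that this protease forms with C3b. The fragments C3a and C5a that are released on activation act on macrophages through the receptors C3aR and C5aR1.

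Levels are given as CPM, read counts scaled to the library total with TMM factors, and a change was called at an edgeR adjusted p under 0.05 (quasi-likelihood test, Benjamini-Hochberg adjustment over the 13614 genes). The 24 libraries of batch 1 held between 7037684 and 9089792 counts. Trap1 had no count in the 12 TRAP1 KO libraries and 10.4 to 18.8 CPM in the 12 WT libraries. Xist reached at most 1.14 CPM in TRAP1 KO and lay between 254 and 504 CPM in WT libraries of batch 1, which goes against the label of female mice for the TRAP1 KO libraries. In batch 1, genotype and this difference cannot be told apart. The 2 TRAP1 KO libraries of batch 2 had 0 and 2 counts of Trap1 but 307.5 and 404 CPM of Xist. The summed CPM of 8 macrophage markers was between 8379 and 12859 in every library. The summed markers of T and NK cells, B cells, fibroblasts, Schwann lineage, erythroid cells and mast cells stayed at 10.8 CPM or less, those of dendritic cells ranged from 5.30 to 19.7 CPM and those of neutrophils from 1.88 to 20.1 CPM. In bulk RNA, fewer cells of a kind and less RNA per cell cannot be told apart. The 3 libraries of batch 2 entered no result below, since 2 of them, labelled as TRAP1 KO M2 replicate 4 in each medium, correlated best with another group than their own. In batch 1, replicate 1 of the 4 Mφ groups and of WT M2 in MPNST-CM stood apart from the other libraries of its group. Squared count differences were 16.04 to 37.4 times those of sampling noise (chi-square over its degrees of freedom), against 2.11 to 13.1 for the remaining pairs. Results that changed in call without these 5 libraries, with 19 left, are given so beside their values. Groups then hold 2 or 3 libraries.

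C1qa, C1qb and C1qc lie next to each other, with no other gene between them, on chromosome 4. RefSeq start sites of the GRCm38.p6 annotation were found for 6 of the 8 genes, and the 250 bases before the start were searched on both strands for TATAAA (core promoter box), GAGGAA (PU.1 core), TTGCNNAA (C/EBP), TTCNNNGAA (STAT), ACGTG (HIF core), TGATGNAA (ATF4-type) and a repeated IRF motif and a STAT6-type motif. The windows of C1qb, C1qc and C3 are shown because C1qb and C1qc moved together, because C3 had the largest interaction terms and because each holds a match, which is in capitals. All 3 genes are on the minus strand, and the windows are chr4:136886201-136886450, chr4:136892915-136893164 and chr17:57228137-57228386.
C1qb: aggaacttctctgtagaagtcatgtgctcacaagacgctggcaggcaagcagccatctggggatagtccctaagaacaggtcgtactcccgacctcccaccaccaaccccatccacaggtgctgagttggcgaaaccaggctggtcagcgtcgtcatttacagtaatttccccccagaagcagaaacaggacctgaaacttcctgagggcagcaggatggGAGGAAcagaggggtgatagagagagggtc
C1qc: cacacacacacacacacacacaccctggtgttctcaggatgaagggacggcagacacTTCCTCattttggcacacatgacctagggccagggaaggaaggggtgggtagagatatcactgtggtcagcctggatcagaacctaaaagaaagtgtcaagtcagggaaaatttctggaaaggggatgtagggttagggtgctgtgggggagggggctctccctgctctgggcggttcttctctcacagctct
C3: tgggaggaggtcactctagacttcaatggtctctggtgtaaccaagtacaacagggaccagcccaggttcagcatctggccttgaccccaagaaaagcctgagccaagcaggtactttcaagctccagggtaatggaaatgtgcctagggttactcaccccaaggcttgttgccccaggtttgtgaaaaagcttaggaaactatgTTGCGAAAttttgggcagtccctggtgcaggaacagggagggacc

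The PU.1 core lay 30 to 25 bases before the start of C1qb and, on the other strand, 193 to 188 bases before that of C1qc, and 23.3% of 32851 promoter windows of this length hold it. The C/EBP letters lay 45 to 38 bases before the start of C3 and are held by 9.56% of the windows. The window of C3ar1 held TATAAA, found in 12.4% of the windows, 235 to 230 bases before the start, and those of C5ar1 and Cfp held none of the 8 motifs. These matches describe letters in the windows and were not tested for binding.

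**Figure D1:**
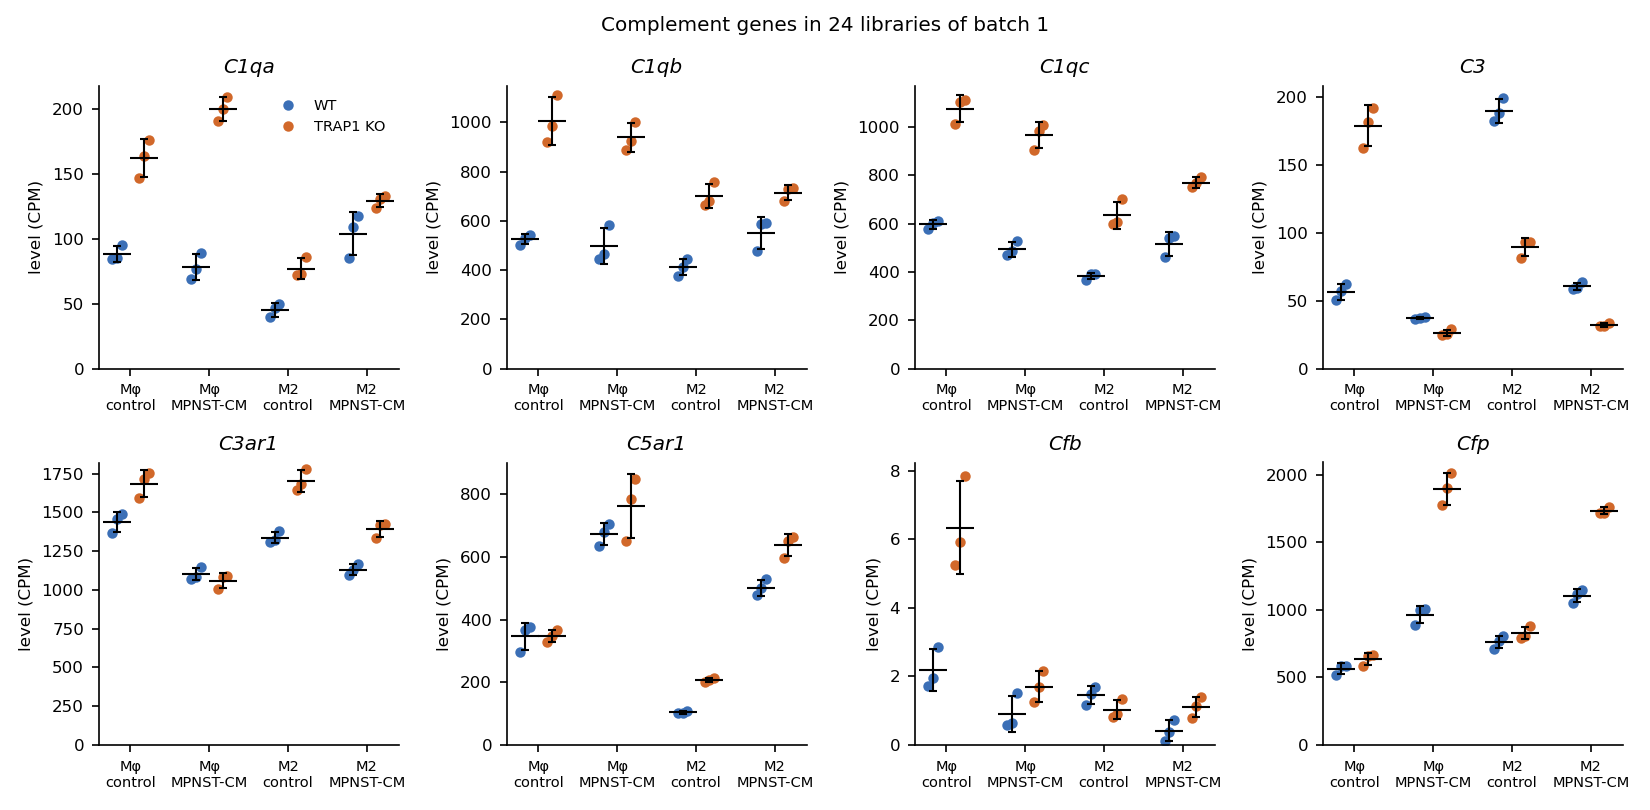
Levels in CPM of the 8 complement genes in each of the 24 libraries of batch 1, by cell type and medium, with WT in blue and TRAP1 KO in orange; the horizontal bar and whiskers are the mean ± SD of 3 libraries and every axis starts at 0. The TRAP1 KO points of C1qa, C1qb and C1qc lie above the WT points in all 4 conditions, and the C3 points fall in MPNST-CM in all 4 pairs of groups.

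Between MPNST-CM and control medium, 6 of the 8 genes differed in WT Mφ (2 higher, 4 lower), where 21.2% of all genes tested were called (11.3% higher, 9.96% lower), and 6 in TRAP1 KO Mφ (3 higher, 3 lower), where 32.9% were (14.8% and 18.1%). In M2 macrophages, all 8 differed in WT (5 higher, 3 lower) beside 24.5% of all genes (11.2% and 13.3%), and 6 in TRAP1 KO (4 higher, 2 lower) beside 36.8% (16.7% and 20.2%). The genes therefore did not move as a block with the medium. C3 and C3ar1 were lower and C5ar1 and Cfp higher in MPNST-CM in all 4 pairs of groups, while the C1q chains and Cfb were not called in all 4.

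Between TRAP1 KO and WT, 6 of the 8 genes differed in Mφ in control medium, all of them higher in TRAP1 KO, beside 16.6% of all genes (8.64% higher, 7.97% lower). In Mφ in MPNST-CM, 5 differed (4 higher, 1 lower) beside 38.2% (19.1% and 19.2%), in M2 in control medium 6 (5 higher, 1 lower) beside 16.4% (8.56% and 7.87%), and in M2 in MPNST-CM all 8 (7 higher, 1 lower) beside 34% (17.2% and 16.8%). The gene that was lower in TRAP1 KO was C3 each time. The median log2 difference of the 8 genes was 0.86, 0.91, 0.54 and 0.36 in these 4 comparisons, and that of all genes between 0.02 and 0.05.

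M2 macrophages differed from Mφ in control medium in 6 of the 8 genes in WT (2 higher, 4 lower), where 37.2% of all genes were called (19.1% higher, 18.1% lower), and in 7 in TRAP1 KO (1 higher, 6 lower), where 28.5% were (15.6% and 12.9%). In MPNST-CM, 3 differed in WT (2 higher, 1 lower) beside 24.9% of all genes (11.9% and 13%), and 4 in TRAP1 KO (1 higher, 3 lower) beside 11.2% (6.71% and 4.47%). Markers of osteoclasts moved with IL-4: the summed CPM of 4 genes was 15.5 to 43.9 in Mφ and 84.3 to 561 in M2 libraries, carried by Dcstamp, Ctsk and Acp5 with Calcr at or near 0. Its part in these differences was not tested. The comparisons share libraries with each other, so their values are set side by side and are not independent. With 3 libraries against 3, groups without overlap are common among all genes tested. Their share ran from 27.7% (M2 against Mφ, TRAP1 KO in MPNST-CM) to 51.7% (M2 against Mφ, WT in control medium) over the 12 pairwise comparisons.

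**Figure D2:**
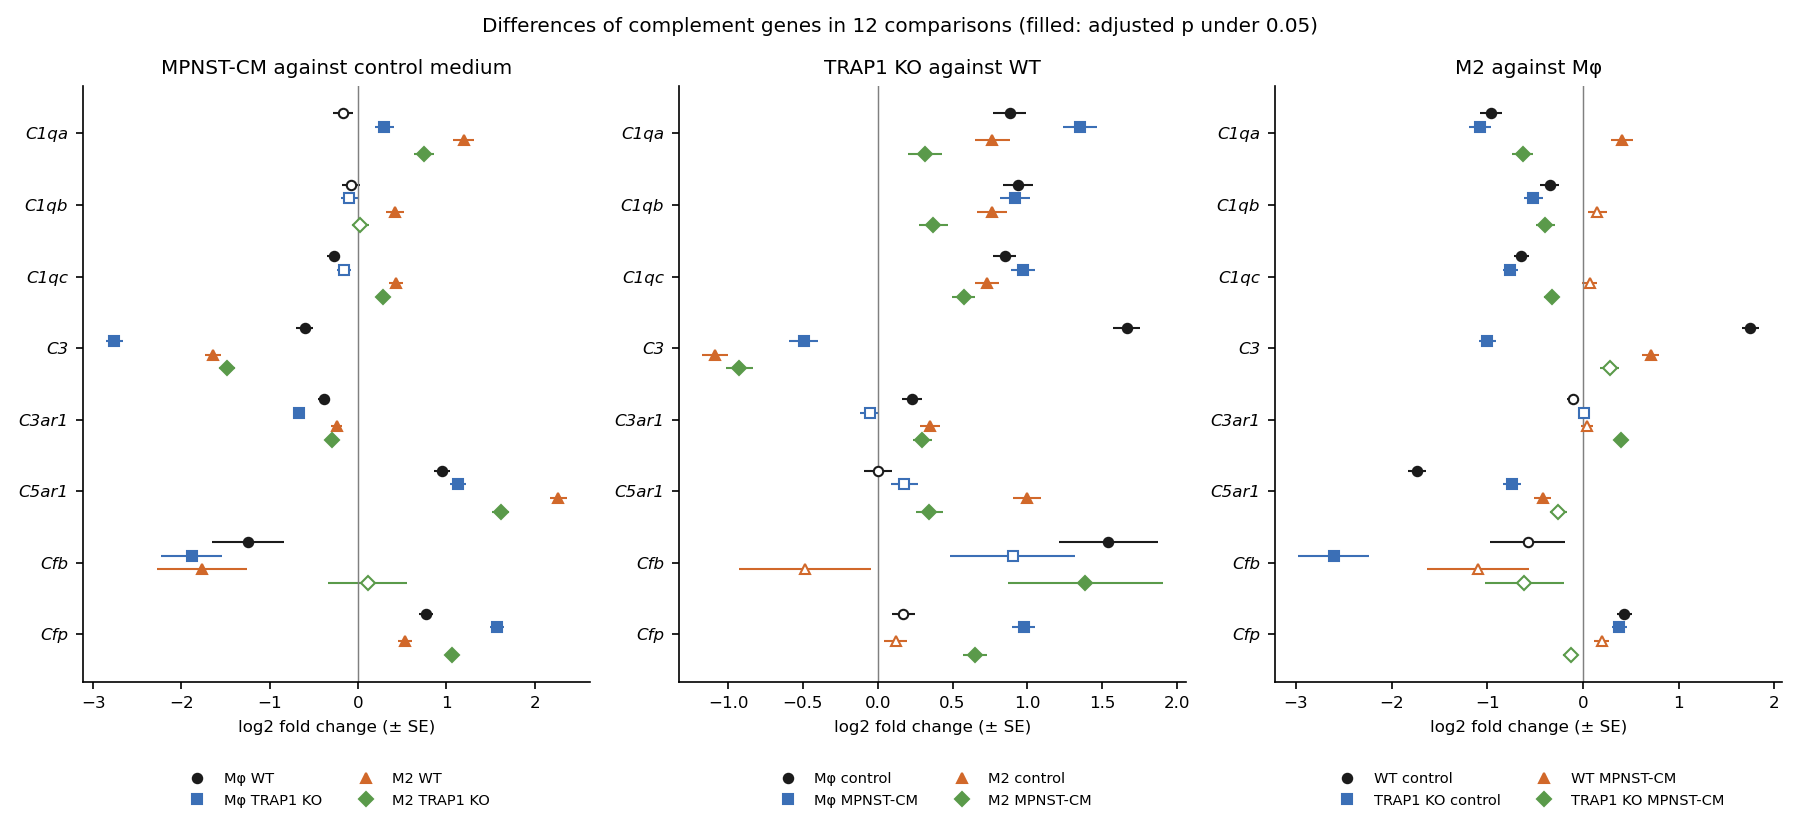
Log2 fold changes with SE of the 8 complement genes for MPNST-CM against control medium, TRAP1 KO against WT and M2 against Mφ, with 3 libraries per group; filled symbols passed an adjusted p under 0.05. C5ar1 and Cfp lie to the right and C3 and C3ar1 to the left of 0 for all 4 medium comparisons, and the 3 C1q chains lie to the right of 0 for all 4 genotype comparisons.

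Loss of TRAP1 came with higher transcripts of all 3 C1q chains in each cell type and medium. In control medium, C1qa was at 84.3, 95.6 and 85.4 CPM in WT Mφ and at 147, 164 and 177 CPM in TRAP1 KO Mφ. With MPNST-CM, it was at 88.8, 69.5 and 77.0 CPM in WT Mφ and at 191, 209.6 and 201 CPM in TRAP1 KO Mφ. The genotypes did not overlap in either medium, which held for 31.7% of all genes in control medium and 46.1% in MPNST-CM. The highest C1qa levels of all groups were those of TRAP1 KO Mφ in MPNST-CM. The log2 difference was 0.88 ± 0.112 (SE, edgeR adjusted p = 1.68e-06) in control medium and 1.35 ± 0.113 (edgeR adjusted p = 2.41e-10) in MPNST-CM.

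M2 macrophages in control medium had 50.03, 46.6 and 39.6 CPM of C1qa in WT and 71.9, 86.2 and 73.2 CPM in TRAP1 KO. M2 macrophages in MPNST-CM had 85.6, 118 and 109 CPM in WT and 124, 134 and 131 CPM in TRAP1 KO. C1qa was thus lowest in WT M2 in control medium. The genotypes again did not overlap, as for 37.5% of all genes in control medium and 46.5% in MPNST-CM. The log2 difference between TRAP1 KO and WT was 0.76 ± 0.117 (edgeR adjusted p = 3.33e-05) in control medium and 0.31 ± 0.112 (edgeR adjusted p = 0.0304) in MPNST-CM. The latter call ended without WT replicate 1 (0.12 on the log2 scale), TRAP1 KO replicate 2 (0.29) or TRAP1 KO replicate 3 (0.31), with an adjusted p between 0.0747 and 0.434, and with median-of-ratios size factors (adjusted p = 0.0667), DESeq2 (0.0813), no filter (0.123), the 2 groups alone (0.12) or 19 libraries (0.12 on the log2 scale, adjusted p = 0.297).

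C1qb and C1qc, the transcripts of the B and C chains, followed the same order of genotypes. Over the 4 conditions, C1qb ranged from 378 to 590.0 CPM in the 12 WT libraries and from 665 to 1111 CPM in the 12 TRAP1 KO libraries. C1qc ranged from 369 to 612 CPM in WT and from 599 to 1113 CPM in TRAP1 KO. For C1qb the lowest TRAP1 KO library of batch 1 thus lay above the highest WT library of batch 1 on the TMM scale. The share of all genes with such a separation of 12 libraries from 12 was not computed. On library totals alone the C1qb ranges overlapped, with 5030 of 8050281 counts in WT Mφ in MPNST-CM replicate 1. The TRAP1 KO M2 library in control medium replicate 1 had 4541 of 7443943. For C1qc the ranges overlapped between 599 and 612 CPM. The log2 differences between TRAP1 KO and WT in Mφ were 0.94 ± 0.1 and 0.85 ± 0.0788 in control medium and 0.92 ± 0.1 and 0.97 ± 0.079 in MPNST-CM, for C1qb and C1qc in this order (edgeR adjusted p of 9.74e-08, 8.89e-09, 3.42e-08 and 1.46e-10). In M2 they were 0.77 ± 0.1 and 0.73 ± 0.079 in control medium and 0.37 ± 0.0994 and 0.57 ± 0.0786 in MPNST-CM (edgeR adjusted p of 3.52e-06, 1.77e-07, 0.00459 and 1.83e-06). Without WT M2 replicate 1, the difference of C1qb in MPNST-CM was 0.21 (adjusted p = 0.122).

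IL-4 lowered the C1q chains in control medium in both genotypes. The log2 difference of M2 from Mφ was -0.96 for C1qa, -0.35 for C1qb and -0.64 for C1qc in WT (edgeR adjusted p of 1.81e-07, 0.00675 and 2.19e-07), and -1.08, -0.52 and -0.76 in TRAP1 KO (edgeR adjusted p of 2.28e-08, 0.000183 and 1.61e-08). The C1qb call in WT ended without M2 replicate 4 (-0.30, adjusted p = 0.0521). The interaction of genotype and IL-4 did not pass for any chain, with terms of -0.12, -0.17 and -0.12 and an edgeR adjusted p between 0.558 and 0.761. In MPNST-CM, TRAP1 KO M2 were still below TRAP1 KO Mφ for all 3 chains, by log2 differences of -0.63, -0.39 and -0.33 (edgeR adjusted p of 0.000223, 0.00825 and 0.00525), of which that of C1qb did not pass without Mφ replicate 2 (-0.34, adjusted p = 0.0578) or M2 replicate 2 (-0.36, adjusted p = 0.05003). In WT in MPNST-CM, C1qa was higher in M2 by 0.41 (edgeR adjusted p = 0.00801), with overlapping libraries, and the call ended without replicate 2 of either group (0.33 and 0.31) or with the 2 groups alone (adjusted p = 0.0823). C1qb and C1qc were at 0.15 and 0.07 there (edgeR adjusted p of 0.301 and 0.59), and C1qb passed without replicate 1 of WT Mφ (0.28) or of WT M2 (0.28). With 19 libraries, both passed (0.44 and 0.26, adjusted p of 1.96e-05 and 0.00334). In this fit 6 of the 8 genes were called in this comparison instead of 3.

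The response of C1q to the medium differed between WT Mφ and WT M2. In WT M2, MPNST-CM raised C1qa by 1.20 ± 0.117, C1qb by 0.42 ± 0.0998 and C1qc by 0.43 ± 0.0788 on the log2 scale (edgeR adjusted p of 9.46e-09, 0.00229 and 0.000128). In WT Mφ, the differences were -0.17, -0.08 and -0.28, of which only that of C1qc passed (edgeR adjusted p = 0.012), and it did not pass without the MPNST-CM replicate 2 (-0.24, adjusted p = 0.0615). With 19 libraries, C1qa passed there as well (-0.30, adjusted p = 0.0232). The interaction of IL-4 and medium in WT was 1.37 ± 0.162 for C1qa, 0.50 ± 0.141 for C1qb and 0.71 ± 0.111 for C1qc (edgeR adjusted p of 1.43e-06, 0.0189 and 6.72e-05). In TRAP1 KO M2, C1qa rose by 0.75 and C1qc by 0.28 (edgeR adjusted p of 5.75e-06 and 0.00604), with C1qb at 0.03 (edgeR adjusted p = 0.869). In TRAP1 KO Mφ, C1qa was at 0.30 (edgeR adjusted p = 0.0376), a call that ended without any one of 4 of the 6 libraries (control replicates 1 and 2, MPNST-CM replicates 2 and 3; 0.23, 0.31, 0.27 and 0.30), while C1qb and C1qc were at -0.10 and -0.15 (edgeR adjusted p of 0.503 and 0.14).

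The chains were compared within a library by the ratio of their counts. The log2 ratio of C1qa to C1qb counts was -2.57 ± 0.154 (SD, n = 3) in WT Mφ and -2.63 ± 0.0394 in TRAP1 KO Mφ in control medium, and it was -3.19 ± 0.0597 in WT M2 and -3.19 ± 0.0565 in TRAP1 KO M2. In MPNST-CM it was -2.66 ± 0.0639 in WT Mφ, -2.23 ± 0.0695 in TRAP1 KO Mφ, -2.41 ± 0.0828 in WT M2 and -2.46 ± 0.107 in TRAP1 KO M2. M2 in control medium lay below Mφ in control medium and below M2 in MPNST-CM without overlap in both genotypes. The two-sided exact permutation p was 0.1 in each of these 4 comparisons, the smallest that 3 libraries against 3 can give. The same p without overlap was found for TRAP1 KO against WT Mφ in MPNST-CM (difference 0.43) and for the medium in TRAP1 KO Mφ (0.40). M2 against Mφ in MPNST-CM gave it too, in opposite directions (0.25 in WT, -0.24 in TRAP1 KO). The remaining pairwise comparisons overlapped. The ratio of C1qc to C1qb moved less, between group means of -0.14 and 0.19. These ratios follow changes between groups and are not the ratio of the transcripts in a cell, since 3′ counts of different genes need not be comparable.

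**Figure D3:**
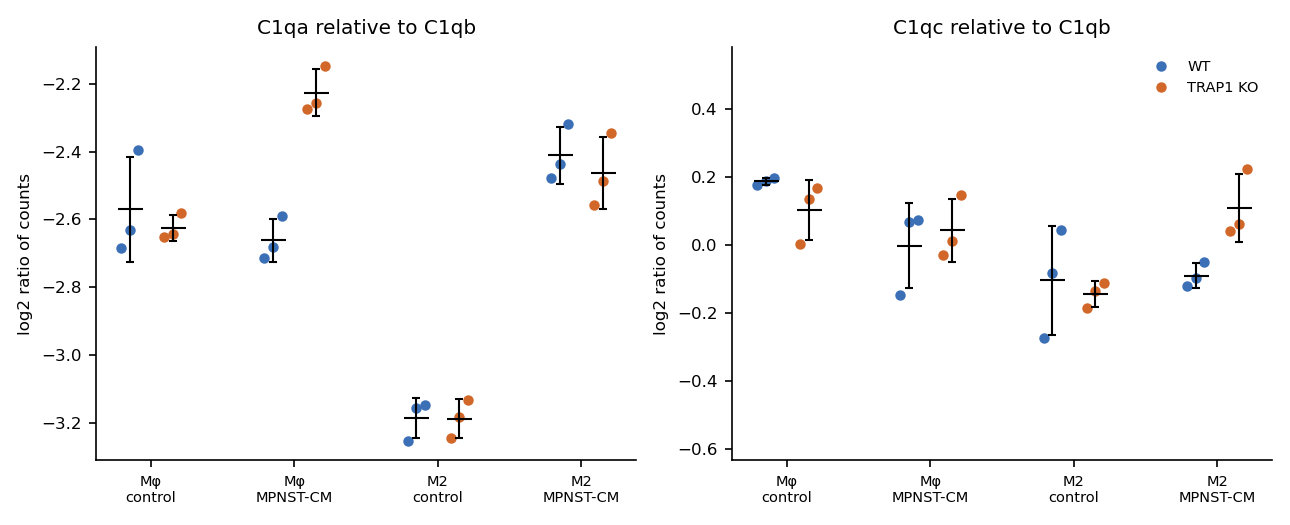
Log2 ratio of counts of C1qa to C1qb (left) and of C1qc to C1qb (right) in each library by cell type and medium, with WT in blue, TRAP1 KO in orange and the mean ± SD of 3 libraries; both axes span the same range. The C1qa ratio is lowest in M2 in control medium, at -3.19 in both genotypes, and the C1qc ratio stays between group means of -0.14 and 0.19.

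C3, the central component, spanned a ratio of 7.21 between its highest and lowest group mean, near the 7.31 of C5ar1 and above the ratios of the C1q chains, Cfp and C3ar1. In control medium, it was at 50.4, 56.8 and 61.9 CPM in WT Mφ and at 162, 181 and 192 CPM in TRAP1 KO Mφ. After IL-4, it was at 199, 188 and 182 CPM in WT M2 and at 93.2, 92.9 and 81.5 CPM in TRAP1 KO M2. The order of the genotypes was therefore reversed between Mφ and M2, without overlap. In control medium, the genotypes did not overlap for 31.7% of all genes in Mφ and 37.5% in M2. C3 was higher in TRAP1 KO Mφ than in WT Mφ by 1.66 ± 0.0899 on the log2 scale (3.17-fold, edgeR adjusted p = 4.61e-13) and was lower in TRAP1 KO M2 than in WT M2, with a log2 difference of -1.09 ± 0.0881 (2.13-fold, edgeR adjusted p = 1.05e-09).

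Seen as a response to IL-4, C3 rose 3.36-fold in WT (log2 difference 1.75 ± 0.0901, edgeR adjusted p = 1.12e-14) and fell in TRAP1 KO (-1.001 ± 0.0879, edgeR adjusted p = 8.27e-10). The interaction of genotype and IL-4 in control medium was -2.75 ± 0.126 (edgeR adjusted p = 7.64e-14), in a comparison where 3 of the 8 genes (1 positive, 2 negative) and 7.08% of all genes (3.86% and 3.22%) were called. In MPNST-CM the IL-4 difference of C3 was 0.71 ± 0.0917 in WT (edgeR adjusted p = 1.17e-06). In TRAP1 KO it was 0.28 (edgeR adjusted p = 0.0642) and passed without Mφ replicate 2 (0.35, adjusted p = 0.0402) or with the replicate block (0.28, adjusted p = 0.0488).

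MPNST-CM lowered C3 in every pair of groups. It was at 36.8, 37.7 and 36.7 CPM in WT Mφ and at 24.6, 28.9 and 25.3 CPM in TRAP1 KO Mφ. In M2, it was at 58.7, 59.3 and 63.7 CPM in WT and at 31.3, 33.3 and 31.01 CPM in TRAP1 KO. Every library in MPNST-CM lay below every library of its own genotype and cell type in control medium, and WT lay above TRAP1 KO in both cell types. The media did not overlap for 33.3% of all genes in WT Mφ, 43.1% in TRAP1 KO Mφ, 39.3% in WT M2 and 49.2% in TRAP1 KO M2. In MPNST-CM, the genotypes did not overlap for 46.1% of all genes in Mφ and 46.5% in M2. The log2 difference from control medium was -0.61 ± 0.0918 in WT Mφ, -2.76 ± 0.0954 in TRAP1 KO Mφ, -1.65 ± 0.0897 in WT M2 and -1.48 ± 0.0929 in TRAP1 KO M2 (edgeR adjusted p of 2.19e-05, 3.87e-18, 1.52e-13 and 6.1e-13). The fall was 1.52-fold in WT Mφ and 6.78-fold in TRAP1 KO Mφ, with an interaction of genotype and medium of -2.16 ± 0.131 (edgeR adjusted p = 2.47e-12). In M2 the interaction term was 0.16 ± 0.127 (edgeR adjusted p = 0.425). In MPNST-CM the genotypes differed by -0.49 ± 0.0953 in Mφ and by -0.92 ± 0.093 in M2 (edgeR adjusted p of 0.000159 and 1e-08). An interaction of genotype and medium was called for 4 of the 8 genes in Mφ (2 positive, 2 negative), beside 19.7% of all genes (8.17% and 11.5%), and for 4 in M2 (1 positive, 3 negative), beside 20.2% (9.36% and 10.8%).

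**Figure D4:**
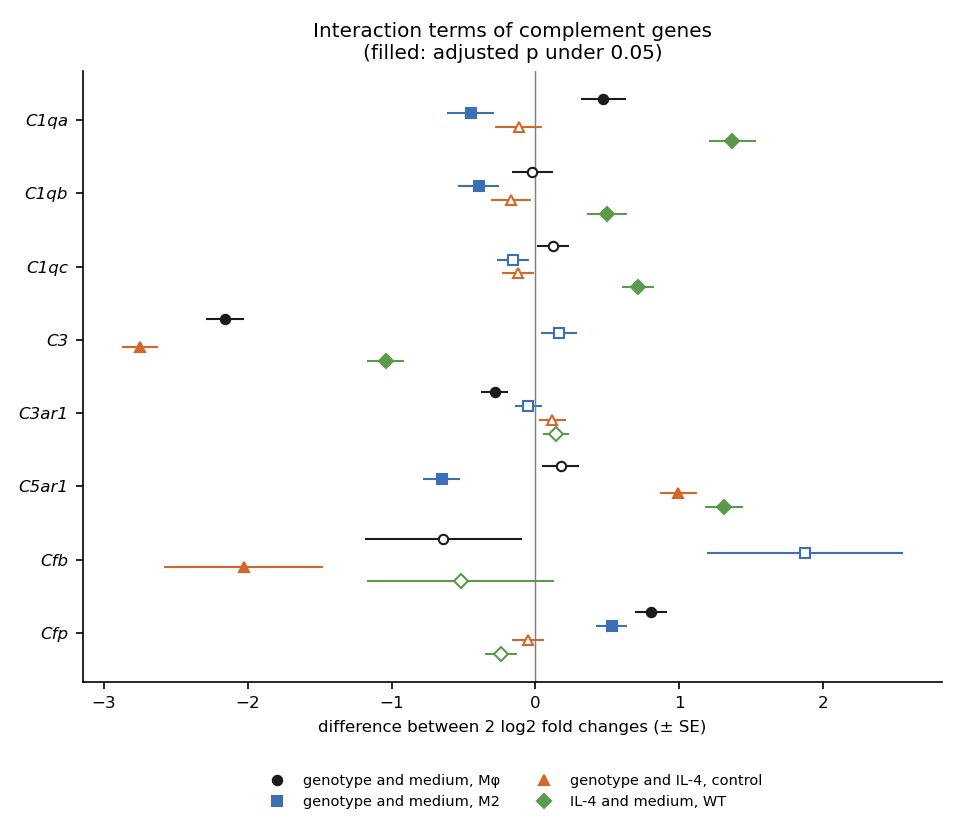
Interaction terms with SE on the log2 scale for the 8 complement genes, for genotype and medium in Mφ and in M2, genotype and IL-4 in control medium, and IL-4 and medium in WT; filled symbols passed an adjusted p under 0.05. The terms of C3 for genotype and IL-4 (-2.75) and for genotype and medium in Mφ (-2.16) lie farthest to the left with small SE, while those of Cfb have SE of 0.547 to 0.683.

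Cfb, which encodes factor B, was a low transcript with 1 to 60 counts in a library. Its counts were 16, 22 and 15 in WT Mφ and 42, 60 and 45 in TRAP1 KO Mφ in control medium, and 13, 5 and 6 and 10, 14 and 17 in MPNST-CM. In M2 in control medium they were 10, 9 and 12 in WT and 6, 10 and 6 in TRAP1 KO, and in MPNST-CM 1, 6 and 3 in WT and 6, 10 and 11 in TRAP1 KO. TRAP1 KO Mφ in control medium stood above every other group, at 6.34 ± 1.35 CPM (SD, n = 3), and the next group, WT Mφ in control medium, was at 2.18 ± 0.608 CPM. The log2 difference between these was 1.54 ± 0.331 (edgeR adjusted p = 0.00127).

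From TRAP1 KO Mφ in control medium, Cfb fell with MPNST-CM (-1.89 ± 0.341, edgeR adjusted p = 7.49e-05) and with IL-4 (-2.61 ± 0.375, edgeR adjusted p = 3.87e-06), the latter beside -0.58 ± 0.389 in WT (edgeR adjusted p = 0.26). At these counts the remaining calls of Cfb hung on single libraries. The fall with MPNST-CM in WT Mφ (-1.25 ± 0.403, edgeR adjusted p = 0.0277) did not pass without control replicate 2 (-1.01) or MPNST-CM replicates 2 (-1.01) or 3 (-1.05), with no filter (adjusted p = 0.0511) or with the 2 groups alone (0.0950), and that in WT M2 (-1.76 ± 0.507, edgeR adjusted p = 0.0109) did not pass without MPNST-CM replicate 1 (-1.28) or control replicate 4 (-1.60), or with 19 libraries (-1.28, adjusted p = 0.0713). The difference between TRAP1 KO and WT M2 in MPNST-CM (1.39 ± 0.519, edgeR adjusted p = 0.0404) did not pass without WT replicates 1 (0.90) or 3 (1.33), without TRAP1 KO replicates 2 (1.37) or 3 (1.20), or with DESeq2 (adjusted p = 0.0854), no filter (0.119) or 19 libraries (0.90 on the log2 scale, adjusted p = 0.204). That in Mφ in MPNST-CM was 0.90 ± 0.417 (edgeR adjusted p = 0.0911) and passed without WT replicate 1 (1.45, adjusted p = 0.0199) or with 19 libraries (1.61, adjusted p = 0.0127).

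Cfp, which encodes properdin, rose with MPNST-CM in all 4 pairs of groups. In control medium it was at 518, 588 and 588 CPM in WT Mφ and at 584, 656 and 668 CPM in TRAP1 KO Mφ. With MPNST-CM it was at 891, 996 and 1006 CPM in WT Mφ and at 1773, 2015 and 1899.7 CPM in TRAP1 KO Mφ. The genotypes overlapped in control medium and stood apart in MPNST-CM, as for 46.1% of all genes in Mφ. In M2, Cfp was at 771, 712 and 806 CPM in WT and at 882, 794 and 809 CPM in TRAP1 KO in control medium, and at 1052, 1145 and 1116 CPM and 1764, 1719 and 1719 CPM in MPNST-CM. The same order of the groups was thus seen in both cell types.

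The log2 difference of Cfp between MPNST-CM and control medium was 0.77 ± 0.0777 in WT Mφ, 1.58 ± 0.079 in TRAP1 KO Mφ, 0.53 ± 0.0774 in WT M2 and 1.07 ± 0.078 in TRAP1 KO M2 (edgeR adjusted p of 3.8e-08, 6.45e-15, 6.46e-06 and 1.38e-11). The response was larger in TRAP1 KO, with an interaction of 0.80 ± 0.109 in Mφ and 0.53 ± 0.109 in M2 (edgeR adjusted p of 3.22e-06 and 0.000716). TRAP1 KO was higher than WT in MPNST-CM by 0.98 ± 0.0778 in Mφ and 0.65 ± 0.0774 in M2 (edgeR adjusted p of 1.01e-10 and 1.88e-07), whereas in control medium the differences were 0.17 and 0.12 (edgeR adjusted p of 0.145 and 0.325). Cfp lies on the X chromosome, where Xist differed between the genotypes in both media, and the part of this in the Cfp values was not tested. IL-4 raised Cfp in control medium by 0.43 in WT and 0.38 in TRAP1 KO (edgeR adjusted p of 5.8e-05 and 0.000366). In MPNST-CM the IL-4 differences were 0.20 and -0.13 (edgeR adjusted p of 0.0658 and 0.366), and that in WT passed without M2 replicate 1 (0.26), with DESeq2 (adjusted p = 0.0251), with median-of-ratios size factors (0.0444), with no filter (0.013), with the replicate block (0.0306) or with 19 libraries (0.00443).

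C3ar1, the receptor for C3a, varied least, with a ratio of 1.60 between its highest and lowest group mean. In control medium it was at 1365, 1459.6 and 1490.3 CPM in WT Mφ, 1589.8, 1714 and 1754 CPM in TRAP1 KO Mφ, 1310.0, 1377 and 1325 CPM in WT M2, and 1642, 1783 and 1680.2 CPM in TRAP1 KO M2. In MPNST-CM it was at 1084, 1145 and 1073 CPM in WT Mφ, 1005, 1083 and 1093 CPM in TRAP1 KO Mφ, 1165, 1130.2 and 1099 CPM in WT M2, and 1416, 1334 and 1425 CPM in TRAP1 KO M2. The media did not overlap in any pair of groups, while TRAP1 KO lay above WT except in Mφ in MPNST-CM. Of all genes, 33.3% (WT Mφ), 43.1% (TRAP1 KO Mφ), 39.3% (WT M2) and 49.2% (TRAP1 KO M2) had no overlap of the media. The genotypes did not overlap for 31.7% (Mφ in control medium), 37.5% (M2 in control medium) and 46.5% (M2 in MPNST-CM) of all genes. MPNST-CM lowered C3ar1 by log2 differences of -0.39 ± 0.0653 in WT Mφ, -0.67 ± 0.0655 in TRAP1 KO Mφ, -0.24 ± 0.0652 in WT M2 and -0.29 ± 0.0652 in TRAP1 KO M2 (edgeR adjusted p of 8.99e-05, 4.26e-09, 0.00697 and 0.000791). The call in WT M2 ended without MPNST-CM replicate 1 (-0.19) or control replicates 2 (-0.21), 3 (-0.17) or 4 (-0.20), or with no filter (adjusted p = 0.193).

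C3ar1 was higher in TRAP1 KO than in WT by 0.35 ± 0.0652 in M2 in control medium and by 0.30 ± 0.0652 in M2 in MPNST-CM (edgeR adjusted p of 0.0004 and 0.000743). In Mφ the difference was 0.23 ± 0.0652 in control medium (edgeR adjusted p = 0.0139), a call that ended without WT replicate 1 (0.19), TRAP1 KO replicate 2 (0.22) or TRAP1 KO replicate 3 (0.20), with no filter (adjusted p = 0.064) or with the 2 groups alone (0.0936). It was -0.05 in Mφ in MPNST-CM (edgeR adjusted p = 0.554). IL-4 was followed by a change of C3ar1 in 1 of 4 comparisons, a rise of 0.39 in TRAP1 KO in MPNST-CM (edgeR adjusted p = 0.000115), and the other 3 differences were between -0.11 and 0.04.

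C5ar1, the receptor for C5a, rose with MPNST-CM in all 4 pairs of groups and fell with IL-4 in control medium. In control medium it was at 298, 376 and 367 CPM in WT Mφ and at 327, 368 and 347 CPM in TRAP1 KO Mφ. It was at 101, 103 and 109 CPM in WT M2 and at 215, 207 and 201 CPM in TRAP1 KO M2 in the same medium. The genotypes overlapped in Mφ and stood apart in M2, as for 37.5% of all genes. The log2 difference in M2 was 0.997 ± 0.0945 (edgeR adjusted p = 1.8e-08) beside 0.00 ± 0.0915 in Mφ (edgeR adjusted p = 0.994). The fall with IL-4 was -1.74 ± 0.0954 in WT and -0.74 ± 0.0925 in TRAP1 KO (edgeR adjusted p of 4.44e-14 and 4.19e-07), with an interaction of 0.99 ± 0.131 (edgeR adjusted p = 8.64e-06).

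In MPNST-CM, C5ar1 was at 635, 678 and 706 CPM in WT Mφ and at 650.4, 849 and 785 CPM in TRAP1 KO Mφ. It was at 477, 528 and 500.5 CPM in WT M2 and at 651, 663 and 598 CPM in TRAP1 KO M2. All 12 libraries in MPNST-CM were above the 12 in control medium, and the share of all genes for which this holds was not computed. As ratios, the group means lay closer together in MPNST-CM (502 to 762 CPM) than in control medium (104 to 347 CPM). The log2 difference from control medium was 0.96 ± 0.0919 in WT Mφ, 1.13 ± 0.0922 in TRAP1 KO Mφ, 2.27 ± 0.0968 in WT M2 and 1.62 ± 0.0938 in TRAP1 KO M2 (edgeR adjusted p of 1.87e-08, 1.33e-10, 9.41e-16 and 1.27e-13). The interaction of genotype and medium was -0.65 ± 0.131 in M2 (edgeR adjusted p = 0.000549) and 0.18 ± 0.129 in Mφ (edgeR adjusted p = 0.399; 0.27 and 0.0402 with 19 libraries). That of IL-4 and medium in WT was 1.31 ± 0.131 (edgeR adjusted p = 1.03e-07), in a comparison where 5 of the 8 genes (4 positive, 1 negative) and 12.1% of all genes (5.23% and 6.91%) were called. TRAP1 KO was higher than WT in M2 in MPNST-CM by 0.34 ± 0.0911 (edgeR adjusted p = 0.00422), which did not pass without WT replicate 1 (0.24, adjusted p = 0.0779). In Mφ the difference of 0.18 (edgeR adjusted p = 0.126) passed without TRAP1 KO replicate 1 (0.28, adjusted p = 0.0165) or with 19 libraries (0.22, adjusted p = 0.00915). After MPNST-CM, M2 were below Mφ in WT (-0.42, edgeR adjusted p = 0.000919). The difference of -0.26 in TRAP1 KO (edgeR adjusted p = 0.0714) passed without Mφ replicate 1 (-0.36, adjusted p = 0.00981), with 19 libraries (-0.35, adjusted p = 4.58e-05) or with the replicate block (-0.25, adjusted p = 0.0263).

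Over the 24 libraries, which share their 8 groups, Pearson's r of log2 CPM was 0.96 between C1qb and C1qc, 0.91 between C1qa and C1qc and 0.88 between C1qa and C1qb. After the group means were taken away, r was 0.68, 0.71 and 0.82 in the same order. C3 and C5ar1 ran in opposite directions over the groups (r = -0.83), but within groups r was 0.63. Among all genes tested, those most like each member by Pearson's r over the 24 libraries were Gas7 (0.95), Tle3 (0.91) and C1qc for C1qa, C1qc, Tmem87b (0.90) and Gas7 (0.89) for C1qb, and C1qb, Gas7 (0.95) and Tnfaip8l2 (0.92) for C1qc. For C3 they were Mmp14 (0.95), Zmiz1 (0.92) and Ndufc2 (0.92), and for Cfb Irf1 (0.92), Dguok (0.90) and Plaat3 (0.88). For Cfp they were Slc16a3 (0.99), Atf4 (0.98) and Ero1a (0.96). For C3ar1 they were Zfyve28 (0.97), Ptafr (0.93) and Tnfsf15 (0.91), and for C5ar1 Sh3bp5 (0.96), Ddah2 (0.95) and Stx2 (0.95). These values describe likeness of the patterns over 8 groups.

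Of 48 further complement genes, 18 were tested, and those for C2, C4, factor D, factor I, C1 inhibitor and the terminal components were not among them. Between MPNST-CM and control medium, 4 of the 18 were higher and 4 lower in WT Mφ, 3 and 5 in TRAP1 KO Mφ, 4 and 5 in WT M2, and 4 and 7 in TRAP1 KO M2. Between TRAP1 KO and WT, 0 were higher and 6 lower in Mφ in control medium, and 4 and 5 differed in MPNST-CM, while in M2 it was 1 and 4 in control medium and 3 and 9 in MPNST-CM. With IL-4, 7 were higher and 2 lower in WT and 8 and 0 in TRAP1 KO in control medium, and 6 and 1 in WT and 3 and 2 in TRAP1 KO in MPNST-CM. The shares of all genes called in each direction in these 12 comparisons are those given with the counts of the 8 genes. Itgax, the α chain of complement receptor 4, went from 71.4 ± 6.62 CPM in WT Mφ to 1492 ± 14.98 CPM in WT M2 in control medium (log2 difference 4.38, edgeR adjusted p = 1.39e-22) and was lower in MPNST-CM and in TRAP1 KO in every pair of groups. Itgb2, the β chain shared by complement receptors 3 and 4, rose with IL-4 from 645 ± 47.5 to 2826 ± 81.4 CPM in WT (2.13, edgeR adjusted p = 6.56e-17). C5ar2, the other C5a receptor, which lies beside C5ar1 and was picked here after its values were seen, had group means between 3.45 and 10.1 CPM.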

How the data were processed

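The authors deposited raw counts per gene, made from 3′ mRNA libraries (Lexogen QuantSeq), and per the labels used Trimmomatic, FastQC, HISAT2, SAMtools, featureCounts and DESeq, with no version given. The labels name the mm39 genome build and the study's methods another, mm10. The 24 libraries of batch 1 (8 groups of 3) held 7037684 to 9089792 counts, and the 3 of batch 2 held 9997776 to 11152362. Of the table, 5 columns matched no sample's labels and were not used. Groups came from the labels. These do not say whether replicates came from separate mice or cultures, so p-values measure only the spread between these samples.

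Counts were scaled by TMM, filtered by group and fitted in one model of the 8 groups with edgeR 4.0.16 (quasi-likelihood, robust, R 4.3.3), where the study's methods name DESeq2. The 12 pairwise comparisons and 4 interactions were adjusted by Benjamini-Hochberg over 13614 genes at 0.05. Tested on simulated data for the medium comparison of WT Mφ (13190 genes), this recovered 99% of 200 genes changed 4-fold, with 13 false calls. The changed genes all had a mean above 10 CPM, and noise was drawn independently for each library. Recovery of smaller changes, of changes in low genes such as Cfb and with shared deviations of replicates was not simulated. Counting error is largest for low genes such as Cfb, and counts under 3 in a library entered the levels, sums and fits as they were.

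The members, gene lists and marker lists were chosen with earlier results of these data known. All 8 members are given in every comparison. Of the further complement genes, those named were taken from the 4 with the largest change among those called at 10 CPM or more in each comparison, and the genes most like a member are the 3 with the highest Pearson's r of log2 CPM. The alternatives tried were size factors by median of ratios, DESeq2 1.42.0, no filter, only the groups compared, a replicate block, a minimum log2 change of 1 in either direction, all 27 libraries with and without batch as a covariate, each replicate left out and, chosen after seeing the data, 25 or 19 libraries. The main fit did not pair samples by replicate number. Promoter windows are RefSeq sequences of GRCm38.p6, and no coordinates were carried between builds.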

Additional observations from a re-analysis of the deposited data

Results flagged for a closer look

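With the 3 libraries of batch 2 added, the 3 groups that then had 4 libraries were examined for each of the 8 genes, and in 7 of these 24 sets a library lay far from the other 3, where chance gives about 1 in 20. In 5 of the 7 it was one of 2 libraries of batch 2. The library labelled TRAP1 KO M2 in MPNST-CM replicate 4 had 66.4 CPM of C1qa, 54.6 CPM of C3, 181 CPM of C5ar1 and 708 CPM of Cfp, where the other 3 had 124 to 133, 30.9 to 33.2, 597 to 660 and 1710 to 1762 CPM. The library labelled TRAP1 KO M2 in control medium replicate 4 had 486 CPM of C5ar1, where the other 3 had 198 to 211 CPM. Not flagged were 625 CPM of C1qb and 579 CPM of C1qc in the MPNST-CM library, where the other 3 had 676 to 733 and 750 to 789 CPM. The control medium library, also not flagged for these genes, had 445 CPM of C1qb (others 654 to 741) and 592 CPM of C1qc. On this scale WT libraries of batch 1 had 377 to 622 CPM of C1qb. These 2 libraries had 0 and 2 counts of Trap1, and 307.5 and 404 CPM of Xist, which reached at most 1.14 CPM in batch 1 TRAP1 KO. By Spearman's correlation with the group means, the library labelled MPNST-CM was closest to WT M2 in control medium (0.983, own group 0.949). The library labelled control medium was closest to TRAP1 KO Mφ in MPNST-CM (0.970, own group 0.914). Whether they carry each other's medium label, or another wrong label, was not tested. In batch 1, TRAP1 KO M2 in control medium replicate 2 had 686 CPM of C1qc, above 589 to 595 CPM, and TRAP1 KO M2 in MPNST-CM replicate 2 had 1328 CPM of C3ar1, below 1412 to 1422 CPM.

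The effect of the medium differed between TRAP1 KO and WT by a tested interaction (edgeR's quasi-likelihood test). In Mφ the terms were -2.16 for C3, 0.80 for Cfp, 0.47 for C1qa and -0.28 for C3ar1, and the last 2 did not pass without any one of 7 and 5 of the 12 libraries. In M2 they were -0.65 for C5ar1, 0.53 for Cfp, -0.45 for C1qa and -0.39 for C1qb, and the last 2 did not pass without any one of 8 of the 12 libraries each. The effect of IL-4 in control medium differed between the genotypes for C3 (-2.75), C5ar1 (0.99) and Cfb (-2.03), and that of Cfb did not pass without any one of 6 of the 12 libraries. The effect of the medium differed between WT M2 and WT Mφ for C1qa (1.37), C1qb (0.50), C1qc (0.71), C3 (-1.04) and C5ar1 (1.31), and that of C1qb did not pass without any one of 5 of the 12 libraries.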

How the results depend on the processing

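Of 128 values for a member in a comparison, 87 were called, and 68 of these kept their call and direction under all alternatives within batch 1 apart from the size requirement, and 47 with the fits of 25 and 27 libraries included. Numbers of members called are given below. With each library left out in turn, they were 4 to 6 (WT Mφ), 5 to 6 (TRAP1 KO Mφ), 6 to 8 (WT M2) and 6 (TRAP1 KO M2) for the medium, 5 to 6 and 5 to 6 (Mφ in control medium and in MPNST-CM), 6 and 4 to 8 (M2) for the genotype, and 5 to 6 (WT) and 7 (TRAP1 KO) in control medium and 2 to 5 and 3 to 5 in MPNST-CM for IL-4. For the interactions they were 2 to 4 (genotype and medium, Mφ), 2 to 4 (M2), 2 to 3 (genotype and IL-4) and 4 to 5 (IL-4 and medium). The 4 in M2 in MPNST-CM arose without WT replicate 1.

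With all 27 libraries, 2, 4 and 2 members were called for the medium in WT Mφ, WT M2 and TRAP1 KO M2, 2 for the genotype in M2 in MPNST-CM, 1 for IL-4 in WT in MPNST-CM, and 1, 0, 1 and 3 for the interactions in the order above. With batch as a covariate the numbers were 2 (WT Mφ), 2 (TRAP1 KO M2), 3, 1 and 2, 0, 1 and 3, and C5ar1 reversed between TRAP1 KO and WT M2 in MPNST-CM (-0.011 on the log2 scale, edgeR adjusted p = 0.99). Where these edgeR fits called 0 members, 2 and 3 members had an unadjusted p under 0.05, without and with the covariate, and DESeq2 was not run on 27 libraries. Over all genes the calls fell as well, for the medium in WT Mφ from 2889 of 13614 to 958 of 13723 and for genotype and medium in M2 from 2751 to 180, without the covariate. These fits hold the 2 libraries that went against their labels. With 25 libraries, without those 2, both interactions of genotype and medium had 2 members. With group means taken away, libraries of the same replicate number in different groups had a mean r of 0.107 over 77 pairs. Those of other numbers had a mean r of -0.045 over 175 pairs, and 14 of 24 libraries correlated best with their own number. With the replicate block the interaction of genotype and medium in M2 had 2 members, where C1qa (-0.39) and C1qb (-0.34) did not pass. With the block, Cfb also did not pass for the medium in WT M2 (-1.58) and for genotype and IL-4 (-1.83). In batch 1 the only replicate 4 is a library of WT M2 in control medium, so the block fits that library exactly. With that library left out and no block, these values were -0.40 (C1qa), -0.37 (C1qb), -1.60 and -1.88 (Cfb), and they did not pass either. The effect of pairing on these calls thus cannot be told apart from that of losing this library. With the block, Cfp (0.20) in WT and C3 (0.28) and C5ar1 (-0.25) in TRAP1 KO passed for IL-4 in MPNST-CM. A minimum log2 change of 1 in either direction, which by construction removes smaller calls, left 1, 4 and 3 members for the medium in WT Mφ, WT M2 and TRAP1 KO M2, 2, 1, 1 and 1 for the genotype, 2 and 3 for IL-4 in control medium and 0 and 0 in MPNST-CM, and 1, 0 and 3 for genotype and medium in Mφ and M2 and for IL-4 and medium. With 19 libraries, chosen after seeing the data, IL-4 in WT in MPNST-CM had 6 members, C1qc passed for genotype and medium in M2 (-0.31), and the other comparisons stayed within 1.5 times their number. Depth limits Cfb, at 1 to 60 counts.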
